A study of Mus musculus with 401 samples.

Results

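Malat1, Neat1, Gas5, Snhg1, Snhg12, Rmrp, Rpph1 and Rn7sk are 8 noncoding RNAs, chosen by name from the 43633 gene IDs that the count tables of the sample sets together hold. They were measured by RamDA-seq, a full-length method that primes total RNA and so also reads RNAs without a poly(A) tail, in single germinal vesicle (GV) oocytes and in the pool of cumulus cells around each one. All animals were B6D2F1 mice. The first set held Young (2 months, 2 mouse labels), Middle (9 months, 4 labels) and Old mice (14 months, 2 labels, 1 of which, Old1_2, joins more than 1 mouse), and CR mice (9 months, 3 labels), which were calorie-restricted while the other groups fed ad libitum. The second set held mice of 2 months (5 labels), 4 months (8), 9 months (4) and 14 months (5), and mice of 2 months without hyperovulation (8). Every other group of both sets had been hyperovulated by hormone injection, so those oocytes come from stimulated ovaries.

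Malat1 and Neat1 are long nuclear RNAs. Malat1 collects in nuclear speckles, bodies rich in splicing factors, and Neat1 is the RNA on which paraspeckles are built. Gas5, Snhg1 and Snhg12 are host transcripts whose introns are cut into small nucleolar RNAs, which guide the chemical modification of ribosomal RNA. Their spliced remainders carry little coding sequence and are known substrates of nonsense-mediated decay. Rmrp and Rpph1 are the catalytic RNAs of RNase MRP and RNase P, the enzymes that cut ribosomal and transfer RNA precursors, and Rn7sk is 7SK RNA, the scaffold on which Hexim proteins hold the elongation kinase P-TEFb inactive. RNA polymerase III makes these small RNAs, which have no poly(A) tail. A fully grown GV oocyte has largely ceased transcription and lives on stored RNA, whereas cumulus cells are transcribing somatic cells.

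The sequences of the small RNAs are printed because they set how far their counts can be told from those of other genes. They are GENCODE transcripts on GRCm38, lie on the minus strand and are printed up to position 300. Rmrp is at chr4:43492788-43493058. Its capitals mark the 124 of 271 bases that an exon of Ccdc107 covers on the opposite strand, from position 36 to position 159 of the RNA. Rpph1 is at chr14:50807449-50807767. Its capitals mark the 233 of 319 bases that lie in an exon of Ccnb1ip1 on the same strand, from position 36 to position 268. Rn7sk is at chr9:78175303-78175633 and is 331 bases long. Its capitals mark 3 copies of the letters GATC, the motif that lies in the 5′ hairpin to which Hexim binds, and 3 or more GATC were found in 3.35% of the 32851 promoter windows of 300 bases.
Rmrp: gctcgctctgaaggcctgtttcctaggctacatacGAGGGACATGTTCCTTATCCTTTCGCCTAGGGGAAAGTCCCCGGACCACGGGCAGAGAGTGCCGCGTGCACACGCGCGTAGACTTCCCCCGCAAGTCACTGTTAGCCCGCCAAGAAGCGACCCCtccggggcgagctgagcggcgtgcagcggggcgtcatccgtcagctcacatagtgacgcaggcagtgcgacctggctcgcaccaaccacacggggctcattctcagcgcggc
Rpph1: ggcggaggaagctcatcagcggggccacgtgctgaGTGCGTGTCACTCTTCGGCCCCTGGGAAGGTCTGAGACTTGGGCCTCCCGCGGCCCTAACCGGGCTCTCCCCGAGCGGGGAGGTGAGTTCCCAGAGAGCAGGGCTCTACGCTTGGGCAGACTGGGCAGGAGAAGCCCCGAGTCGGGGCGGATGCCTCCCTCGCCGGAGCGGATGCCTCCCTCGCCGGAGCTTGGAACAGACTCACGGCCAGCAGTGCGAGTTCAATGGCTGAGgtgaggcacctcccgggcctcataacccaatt
Rn7sk: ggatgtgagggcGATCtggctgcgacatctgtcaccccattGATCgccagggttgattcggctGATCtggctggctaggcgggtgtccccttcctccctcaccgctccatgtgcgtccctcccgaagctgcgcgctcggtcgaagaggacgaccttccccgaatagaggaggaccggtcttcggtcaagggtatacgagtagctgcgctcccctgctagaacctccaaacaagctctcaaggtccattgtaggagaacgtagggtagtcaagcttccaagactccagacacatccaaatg

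The libraries kept no strand, so reads in the shared stretch of Rmrp could come from either gene, and 11 genes hold a stretch of at least 75 bases that matches Rn7sk at 90% identity or more. Of those 11 genes, 10 were in the second set's table. Gm24447 is 100% identical over 241 bases and Gm26315 is 99.6% identical over 238. Because reads that map to several places were shared out, 97.2% to 100% of the Rn7sk counts, depending on the set and cell type, were not whole numbers. Rn7sk values are therefore uncertain as to which copy was read. The long RNAs lie at chr19:5795690-5802672 (Malat1, minus strand) and chr19:5824708-5845478 (Neat1, minus strand), and the host genes at chr1:161034422-161038539 (Gas5), chr19:8723475-8726443 (Snhg1) and chr4:132308623-132311024 (Snhg12), all on the plus strand.

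The host genes are textbook carriers of a 5′ terminal oligopyrimidine tract, a run of C and T at the start of the transcript through which translation is tied to growth signals. The stretches of 40 bases around the RefSeq starts (GRCm38.p6) are printed to show it. Capitals mark the run of C and T that holds the start. The run was 9 bases long at Snhg12 (chr4:132308658-132308697) and 6 at the second of the Gas5 starts (chr1:161035146-161035185), but 4 at Snhg1 (chr19:8723467-8723506), and a run of 6 or more was found at 7.25% of 32851 promoters. The first Gas5 start (chr1:161034581-161034620) had no such run.
Snhg12: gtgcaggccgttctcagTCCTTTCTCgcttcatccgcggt
Gas5, second start: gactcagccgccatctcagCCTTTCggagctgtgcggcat
Snhg1: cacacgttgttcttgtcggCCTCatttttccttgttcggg
Gas5, first start: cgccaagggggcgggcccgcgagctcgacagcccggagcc

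Of 401 libraries, 399 were used, 144 of the first and 255 of the second set. A complex of mouse Middle3 was left out because its library labelled oocyte correlated more with cumulus libraries (Spearman rho 0.860) than with oocyte libraries (0.751). Total counts per library ran from 559305 to 4536690 in oocytes and from 510029 to 2501005 in cumulus pools. The labels fitted the markers, since 13 of 13 oocyte markers were higher in oocytes and 10 of 10 cumulus markers were lower. The summed cumulus markers in first-set oocytes nevertheless stood at a median of 2.40% of the cumulus level, with 8 oocytes over 10%, against 1.36% in the second set.

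All 8 RNAs were lower in oocytes than in the cumulus cells of the same mice, in each of the 11 mouse labels of the first set and each of the 30 of the second. The gap was widest for Malat1 and Neat1 and narrowest for Rn7sk, whose second-set oocyte level stood at 30.8% of the cumulus level (median over mouse labels of CPM, the usual count scaled to library total, with counts summed per label). A paired fit over all genes (edgeR quasi-likelihood F test, mouse label as block, adjusted p under 5% by Benjamini-Hochberg) called 8 of 8 lower in both sets. Of all genes tested, it called 33.9% lower in first-set and 39.5% in second-set mice. Beside those, 37.7% (first set) and 36% (second set) of all genes were called higher. In cumulus pools, fewer cells of a type and less RNA per cell cannot be told apart.

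Malat1 was the RNA with the highest CPM in cumulus pools and nearly absent from second-set oocytes. Over second-set libraries its lowest, median and highest levels were 2225, 4249 and 12817 CPM in cumulus pools and 0, 3.01 and 25.6 CPM in oocytes. In the first set they were 1410, 3542 and 6486 CPM against 1.73, 48.1 and 1046 CPM. The cell types did not overlap in either set. The fitted log2 fold change was -4.55 (SE 0.40) in first-set mice and -9.40 (SE 0.14) in second-set mice.

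Neat1 was the RNA closest to absence in second-set oocytes, while in first-set oocytes Snhg12 had the lower median, at 0 CPM with 37 of 73 libraries at 0. The second-set oocytes held 13 Neat1 counts in all over 127 libraries, and 120 libraries held none, whereas the 128 cumulus pools held 94857. Summed over libraries, the cumulus level was 864 CPM, a ratio of 17641 to the oocyte level of 0.0490 CPM. In the first set the median oocyte stood at 0.392 CPM and the highest at 126, against 26.3 to 2252 CPM in cumulus pools. Its log2 fold change was -4.80 (SE 0.43) in the first set. With so few counts the fitted change of the second set depends on the prior count and is not given.

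The snoRNA host transcripts were low in oocytes but differed among themselves. Gas5 had a median of 4.06 CPM in second-set oocytes (0.493 to 10.2) against 98.0 CPM in cumulus pools (44.0 to 226). Snhg1 had 6.86 CPM (1.16 to 14.5) against 84.7 CPM (50.4 to 176). Neither overlapped between the cell types. Every oocyte of that set held at least 1 Gas5 count and 2 Snhg1 counts, while 105 of 127 held no Snhg12 count. Snhg12 counts summed to 22.5 in oocytes and 2128.5 in cumulus pools, a ratio of 229 in CPM. Log2 fold changes were -3.52 (SE 0.16) for Gas5, -2.81 (SE 0.16) for Snhg1 and -4.28 (SE 0.20) for Snhg12 in the first set. In the second they were -4.05 (SE 0.07) for Gas5 and -3.12 (SE 0.07) for Snhg1.

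The RNase P and RNase MRP RNAs, which share most of their protein subunits, did not fall alike. Second-set oocytes held a median of 2.12 CPM of Rpph1 (0.411 to 4.66) and 0.404 CPM of Rmrp (0 to 2.97), and 31 oocytes held no Rmrp count. Cumulus pools held 25.95 CPM of Rpph1 (1.60 to 51.3) and 29.3 CPM of Rmrp (7.21 to 80.6). Rmrp libraries did not overlap between cell types and Rpph1 libraries did, although within each complex both were lower in the oocyte in 127 of 127. Log2 fold changes in the second set were -5.50 (SE 0.11) for Rmrp and -3.07 (SE 0.08) for Rpph1, and in the first -2.96 (SE 0.24) and -1.94 (SE 0.17). Ccdc107, which shares its exon with Rmrp, had a median of 12.8 CPM in second-set oocytes and 30.5 CPM in cumulus pools. Ccnb1ip1, which shares its exon with Rpph1, had 5.86 CPM in oocytes and 0 in cumulus pools, the opposite order to Rpph1. The part of reads from these genes in the values of Rmrp and Rpph1 was not tested.

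Rn7sk was the RNA whose oocyte level came closest to the cumulus level. Its median was 114 CPM in the oocytes of either set, against 370 CPM in first-set and 382 CPM in second-set cumulus pools. Second-set oocytes ran from 56.1 to 227 CPM and the pools from 124 to 962 CPM, so that single libraries overlapped. Its log2 fold change was -0.75 (SE 0.12, adjusted p = 1.44e-05, edgeR) in the first set and -1.18 (SE 0.06, adjusted p = 2.92e-25) in the second. These changes are relative to the bulk of genes. With library size alone as the scale, the change of all genes shifted by -0.83 (first set) and -0.44 (second set), and Rn7sk then stood at -1.58 and -1.67. Gm24447, the near-identical copy, had medians of 62.0 CPM in second-set oocytes and 192 CPM in cumulus pools.

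**Figure D1:**
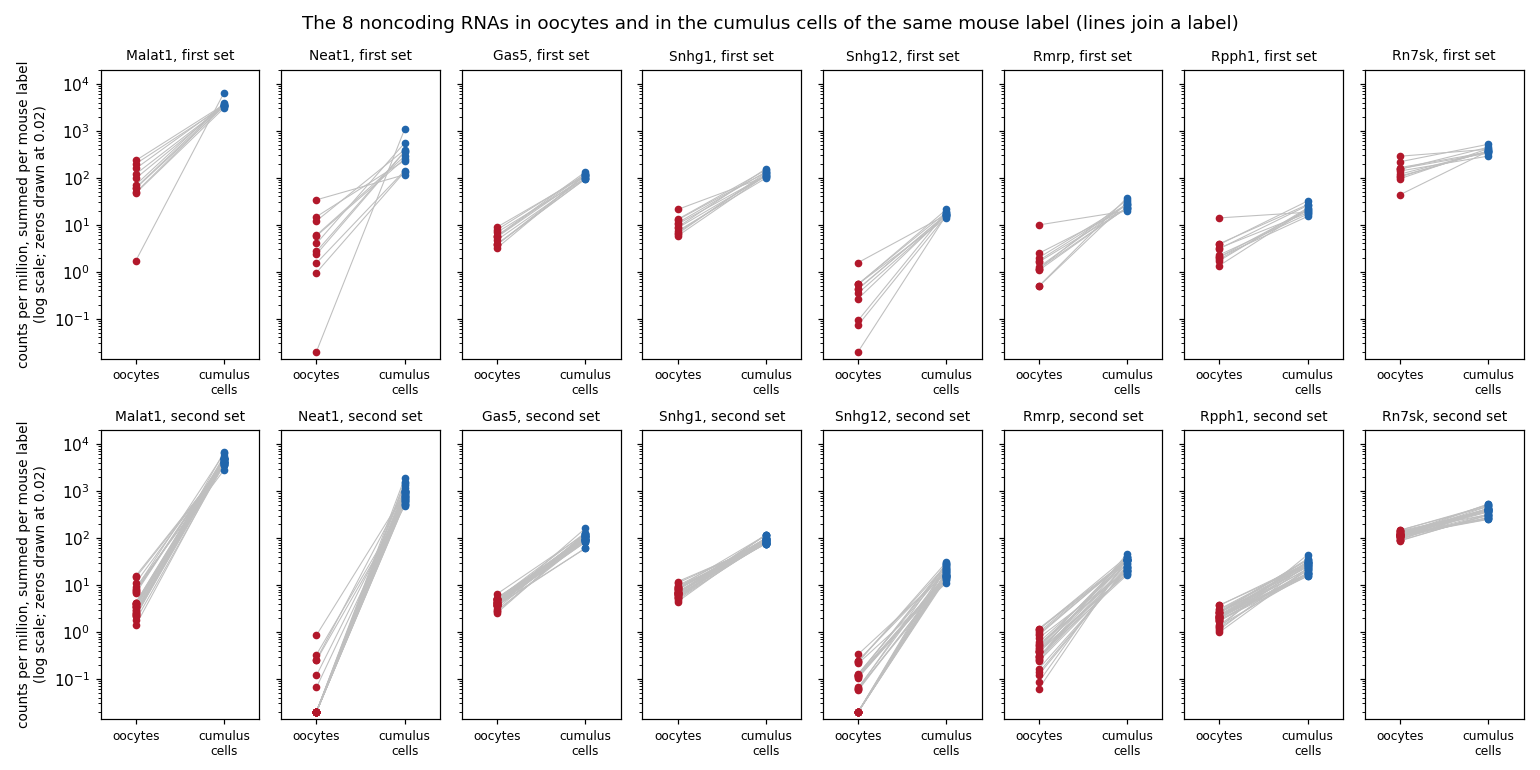
CPM of each RNA in oocytes (red) and cumulus cells (blue), counts summed per mouse label, on a log axis with zeros drawn at 0.02. Lines join the cell types of a label, 11 in the first set (top) and 30 in the second (bottom). Every line rises to the right, most steeply for Neat1 and Malat1 in the second set and least for Rn7sk.

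Single complexes showed the same order. In the second set, 127 of 127 oocytes stood below their own cumulus pool for each of the 8 RNAs. In the first set, 70 of 70 did for Malat1, Neat1, Gas5, Snhg1 and Snhg12, 68 for Rmrp, 67 for Rn7sk and 66 for Rpph1.

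Per length, the ranking of the RNAs differed between the cell types. On the scale of RPKM (CPM per kilobase of transcript, median over mouse labels), second-set cumulus pools ran from Rn7sk (1169) through Malat1 (628), Rmrp (112), Rpph1 (81.2), Neat1 (38.3), Snhg1 (29.1) and Gas5 (25.9) to Snhg12 (11.2). The ranges of neighbours overlapped except between Malat1 and Rmrp. Second-set oocytes ran from Rn7sk (352) through Rpph1 (6.64), Snhg1 (2.32), Rmrp (1.44), Gas5 (1.11), Malat1 (0.52) and Snhg12 (0.04) to Neat1 (0). Here only the gap between Rn7sk and Rpph1 was free of overlap. Malat1 thus came second in cumulus pools and sixth in second-set oocytes. In the first set Malat1 was second in both cell types, at 502 RPKM in cumulus pools and 10.2 RPKM in oocytes, with a range of 0.25 to 33.5 RPKM in oocytes that overlapped Rpph1.

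First-set oocytes held more Malat1 than second-set oocytes, and this level moved with the cumulus markers. Across the 73 first-set oocytes, Malat1 had a Spearman rho of 0.83 with the summed marker level, Rmrp 0.81, Rpph1 0.64, Snhg1 0.61, Neat1 0.59, Gas5 0.57, Snhg12 0.54 and Rn7sk 0.47. The points share total depth with the markers, and no test was made. Among the 127 second-set oocytes rho was 0.44 for Malat1 and between -0.02 and 0.28 for the other RNAs. In the 37 first-set oocytes with the lower marker levels, Malat1 had a median of 0.535% of the cumulus level, and in the other 36 it had 2.96%. The matching values for Rn7sk were 24.5% and 38.7%. Without the 8 oocytes over 10%, a choice made after the data were seen, the first-set fit still called all 8 RNAs lower, with log2 fold changes from -0.97 (Rn7sk) to -5.48 (Neat1). Whether cumulus RNA in oocyte libraries sets these levels was not tested.

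**Figure D2:**
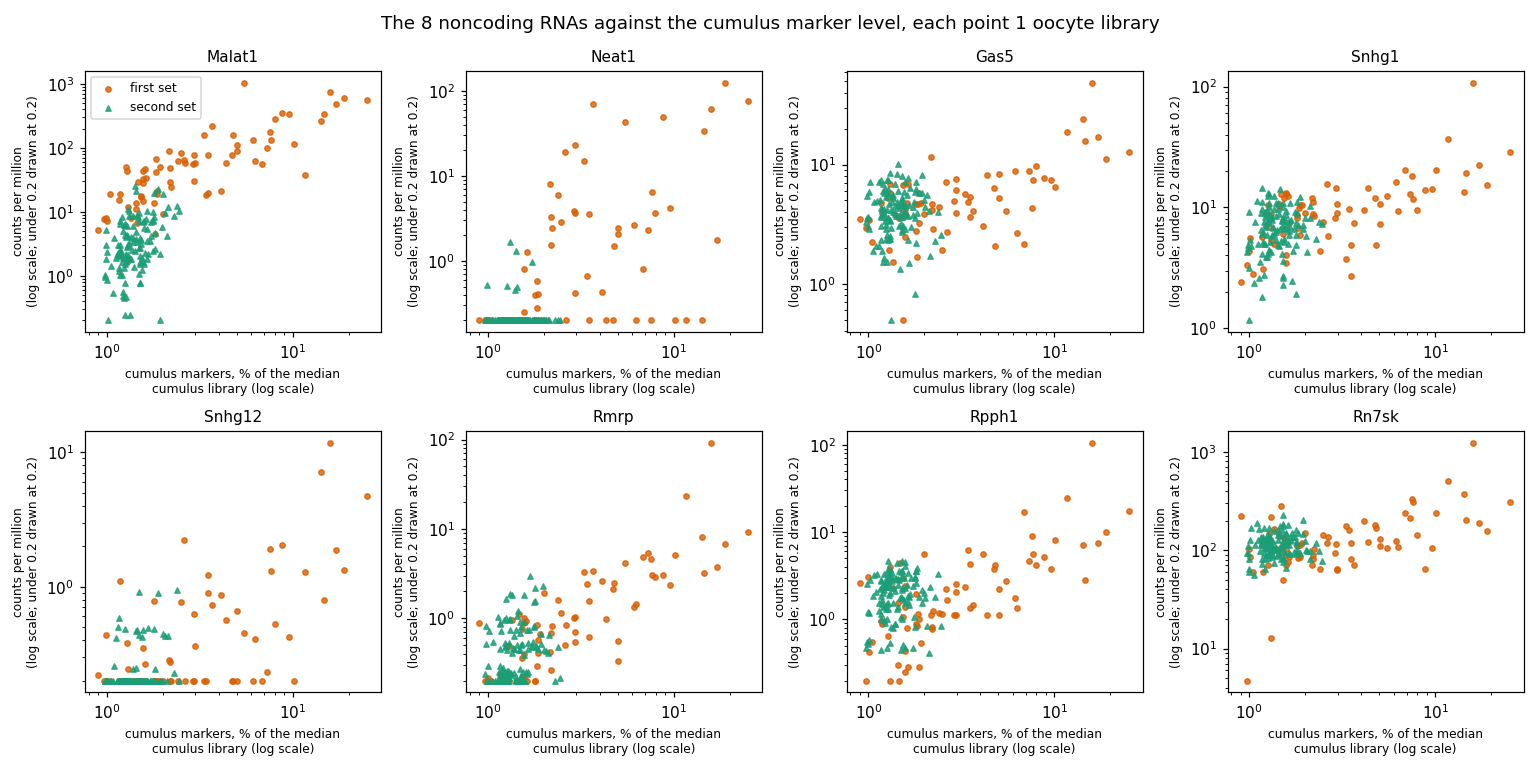
CPM of each RNA (log axis, values under 0.2 drawn at 0.2) against the summed cumulus markers as a percentage of the median cumulus library (log axis), each point an oocyte library. First-set oocytes (orange circles) reach 25.2% of the cumulus marker level and their Malat1 rises with it, while second-set oocytes (green triangles) lie between 0.974% and 2.45%.

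The difference between the cell types was called for all 8 RNAs in every group but Old mice. In the second set all 8 RNAs were called lower in oocytes at 2 months (31.3% of all genes lower), 4 months (35.8%), 9 months (30.3%), 14 months (30.3%) and 2 months without hyperovulation (34.4%). In the first set all 8 were called in Young (23% of all genes lower), Middle (26%) and CR mice (29.2%), but 6 of 8 in Old mice (23.1%). The exceptions in Old mice were Rpph1, at -0.42 (SE 0.35, adjusted p = 0.333, edgeR), and Rn7sk, at -0.01 (SE 0.27, adjusted p = 1). An Old1_2 oocyte stood apart there, with 1230 CPM of Rn7sk where the other Old oocytes had 106 to 502. Its total of 1192652 counts was the lowest of the Old oocytes, whose median was 2293313. This oocyte ranked first of 73 for Gas5, Snhg1, Snhg12, Rmrp, Rpph1 and Rn7sk, and its cumulus markers stood at 15.9% of the cumulus level. Without it Rpph1 was called at -0.93 (adjusted p = 0.0114) and Rn7sk was not, at -0.23 (adjusted p = 0.443). Without the 8 oocytes over 10% of the marker level, Rpph1 stood at -1.32 (adjusted p = 0.000567) and Rn7sk at -0.43 (adjusted p = 0.111). In Young mice Rn7sk stood at -1.74 (SE 0.29).

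Messages for the protein subunits of RNase P and RNase MRP mostly went the other way from Rpph1 and Rmrp. Of 11 such genes, 9 rose in oocytes and none fell in either set, with a median log2 change of 1.83 (first set) and 2.16 (second set) beside 0.01 and -0.21 over all genes. Of all genes tested, 37.7% (first set) and 36% (second set) were called higher. Pop7, which binds the RNA in a pair with another subunit, rose by 3.25 (first set) and 4.02 (second set), and Pop1, the largest subunit, by 2.55 and 2.71. On library size alone, where the median over all genes tested was -0.68 (first set) and -0.56 (second set), 7 rose and 1 fell in the first set and 9 rose and 1 fell in the second. The RNAs of both enzymes were thus lower where most of their protein messages were higher.

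The 7SK particle and P-TEFb split evenly, with 4 of 7 genes higher in oocytes and 3 lower in both sets. Of all genes tested, 37.7% (first set) and 36% (second set) were called higher, and 33.9% and 39.5% lower. Such a split is therefore not particular to this list. The Hexim genes, whose proteins bind 7SK RNA, moved in opposite directions. Hexim1 was lower by -4.32 (SE 0.22) in the first set and -7.52 (SE 0.16) in the second, while Hexim2, its paralogue, was higher by 4.61 (SE 0.16) and 4.98 (SE 0.09). Mepce, which caps 7SK RNA, was higher by 2.90 and 2.55. Cdk9, the kinase of P-TEFb, was lower by -1.46 and -2.12. On library size alone the split was 2 higher and 4 lower in the first set and 3 higher and 4 lower in the second, and the genes named here kept their direction.

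Most genes for proteins of the bodies that hold Neat1 and Malat1 had lower messages in oocytes. Of 11 paraspeckle genes, 8 (first set) and 10 (second set) were called lower, and none was higher. Over all genes tested, 33.9% (first set) and 39.5% (second set) were called lower. Pspc1, a core paraspeckle protein, stood at -3.21 and -4.59, and Cpsf6 at -1.79 and -2.37. Of 9 nuclear speckle genes, 6 were called lower and 1 higher in the first set, and 7 lower and none higher in the second, where the largest call was the splicing factor Srsf5 at -4.55. On library size alone all 11 paraspeckle and all 9 speckle genes were called lower in both sets, with list medians of -1.79 and -2.04 (paraspeckle, first and second set) and -2.69 and -2.90 (speckle), beside -0.68 and -0.56 over all genes on that scale.

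Most other snoRNA hosts went the way of Gas5, Snhg1 and Snhg12. Of 12 tested, 9 were lower and 1 higher in oocytes in either set. Shares over all genes were 33.9% (first set) and 39.5% (second set) lower, and 37.7% and 36% higher. Snhg17 was lower by -4.44 and -6.08 and Snhg3 by -3.61 and -5.32, while Snhg10 was higher by 2.89 in the first set. Nonsense-mediated decay factors were divided, with 5 of 10 higher and 2 lower in the first set and 6 higher and 4 lower in the second, against 3 higher and 7 lower in both sets on library size alone. Upf1, the helicase of the pathway, was higher by 3.32 and 2.97, and Smg5 was lower by -1.67 and -2.93.

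The machinery that transcribes Rmrp, Rpph1 and Rn7sk was divided as well. Of 19 genes for RNA polymerase III and the factors of its type 3 promoters, 10 were higher in oocytes in both sets, and 7 (first set) or 9 (second set) were lower. All genes tested were divided too, with 37.7% (first set) and 36% (second set) higher, and 33.9% and 39.5% lower. On library size alone the counts were 4 higher and 10 lower in the first set and 5 higher and 11 lower in the second. Brf2, the initiation factor particular to these promoters, was higher by 5.13 and 5.93, and Polr3a, the largest subunit, by 3.87 and 3.72. Maf1, the repressor of the polymerase, was lower by -2.60 and -3.83. Of 7 other small RNAs without poly(A), 2 were higher and 1 lower among first-set mice and 3 were lower among second-set mice. The higher ones were Rn7s1 and Rn7s2, copies of the signal recognition particle RNA, at 0.51 and 0.52, and on library size alone both were instead called lower.

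Within oocytes, age gave no call among the 8 RNAs in either set. In the first set 0 of 8 were called for Middle against Young (0% of all genes), Old against Young (0.00344%) and Old against Middle (0%). At an unadjusted p under 0.05 edgeR had 1, 4 and 3 of 8. The shares of all genes in this report are those of edgeR at the adjusted threshold. Shares at an unadjusted p, or by DESeq2 or limma, are not given here or below. Counts of RNAs on those scales therefore have no background beside them. DESeq2 called 1 RNA, Rn7sk, for Old against Young and none for the other pairs, and limma on CPM or RPKM called none. With 2 mouse labels in Young and in Old, a p that misses the threshold does not show that the levels were alike. Small changes could also be missed in the larger groups of the second set.

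Rn7sk had the smallest p among the 8 RNAs for Old against Young oocytes. Its CPM per mouse label was 43.5 and 95.4 in Young, 120, 156, 219 and 152 in Middle, and 288 (Old1_2) and 165 (Old3) in Old. Single oocytes of Young1 (4.73 CPM) and Young2 (12.8 CPM) lay far below the other Young oocytes, of which the lowest had 49.4 CPM. The Young labels averaged 69.5 CPM, whereas oocytes of 2 months in the second set averaged 118 CPM. The Young and Old labels did not overlap, and neither did those of Rpph1, Rmrp and Snhg1. With 2 labels in each group such a separation says little, and its share over all genes was not counted. The log2 difference Old against Young was 1.53 (SE 0.32, adjusted p = 0.342, edgeR), and 1.13 (SE 0.29, adjusted p = 1) for Middle against Young. Rpph1 was 2.07 and 1.85 CPM in Young against 14.0 and 3.21 in Old, a log2 difference of 2.06 (SE 0.50, adjusted p = 0.348). Rmrp was 1.25 and 1.16 CPM against 9.91 and 1.73, a difference of 2.19 (SE 0.63, adjusted p = 0.348). Snhg1 was 6.42 and 5.77 CPM against 21.1 and 6.83, a difference of 1.09 (SE 0.33, adjusted p = 0.348). Old1_2 was far above Old3 in each of them, and the apart-standing oocyte described above is of Old1_2. Without the 8 oocytes over 10% of the marker level the differences were 1.33 for Rn7sk, 1.29 for Rpph1, 0.97 for Rmrp and 0.63 for Snhg1, and none was called. The cumulus markers of Old oocytes had a median of 4.76% of the cumulus level and those of Young oocytes 1.55%, and their part in these differences was not tested.

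In the second set Malat1 stood out in oocytes of 14 months. Its CPM per mouse label was 11.2, 14.5, 15.7, 6.71 and 3.52 at 14 months against 2.46, 3.76, 2.55, 3.41 and 8.85 at 2 months. At 14 months the labels at 11.2, 14.5 and 15.7 carried the name prefix B1, and those at 6.71 and 3.52 carried B2. The labels at 14.5 and 15.7 rested on 2 oocytes each. At 2 months those at 2.46, 3.76 and 2.55 carried B1, and those at 3.41 and 8.85 carried B2. The highest value at 2 months, label 2mo36, rested on 1 oocyte at 25.6 CPM, its others being at 1.66, 3.93 and 4.11 CPM. The groups overlapped. The log2 difference was 1.19 (SE 0.36, adjusted p = 0.173, edgeR) against 2 months and 1.26 (SE 0.40, adjusted p = 0.935) against 9 months. With the name prefix B1 or B2 as a covariate the first of these was 1.21 (adjusted p = 0.149), and without label 2mo36 it was 1.65 (adjusted p = 0.0382). The covariate takes the prefix shift as equal in all groups, so it cannot show whether the age difference varies with the prefix. The summed cumulus markers of the oocytes of 14 months had a median of 1.68% of the cumulus level, against 1.28% at 2 months. That sum rests largely on Nr5a2 in second-set oocytes, and single markers were not compared by age. The part of the markers in the Malat1 difference was not tested. Malat1 in oocytes of 4 and 9 months averaged 3.14 ± 2.05 (SD, n = 8) and 3.82 ± 0.60 CPM (SD, n = 4).

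In the second set Rn7sk levels lay close together. Rn7sk averaged 118 ± 14.3 CPM (SD, n = 5) in oocytes of 2 months, 112 ± 18.6 (n = 8) at 4 months, 114 ± 3.09 (n = 4) at 9 months and 103 ± 10.9 (n = 5) at 14 months. The log2 difference of 14 against 2 months was -0.20 (SE 0.10, adjusted p = 0.521, edgeR). For 4 against 2 months (0% of all genes called), 9 against 2 (0.0676%), 14 against 2 (0.196%) and 14 against 9 months (0.00356%), 0 of 8 RNAs were called. At an unadjusted p under 0.05 edgeR had 0, 0, 1 and 2 of 8, and DESeq2 and limma called none. The ranges of neighbouring groups in the order of levels overlapped for every RNA in this set.

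**Figure D3:**
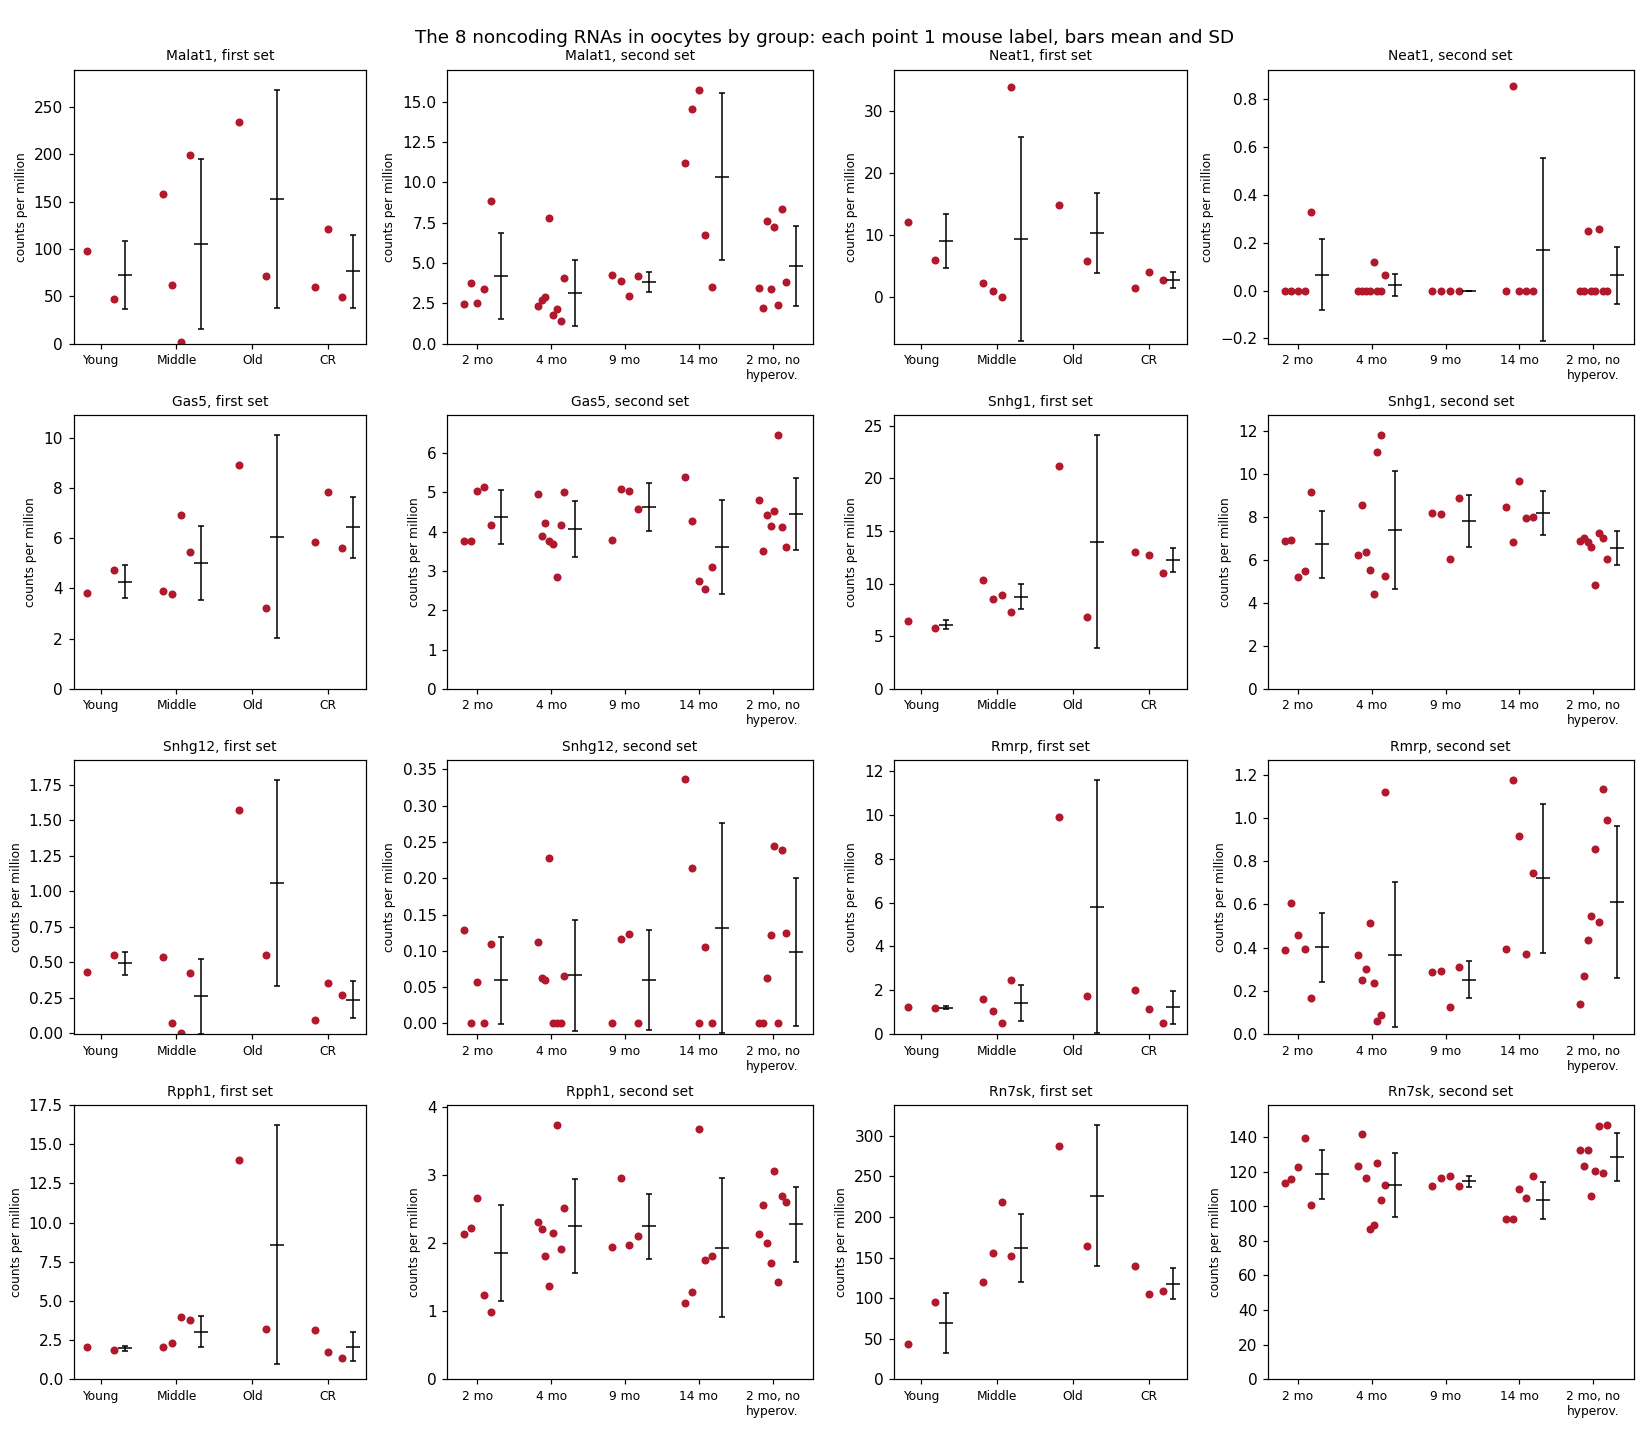
CPM of each RNA in oocytes by group, on a linear axis of its own in each panel, each point a mouse label and each bar the mean with the SD over labels. First-set panels show the label Old1_2 above Old3, and the Malat1 panel of the second set shows 3 labels of 14 months above 11 CPM.

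Cumulus cells gave no age call either. For Middle against Young (0% of all genes), Old against Young (0.0455%), Old against Middle (0%), 4 against 2 months (0%), 9 against 2 months (0.183%), 14 against 2 months (0.105%) and 14 against 9 months (0%), 0 of 8 RNAs were called. At an unadjusted p under 0.05 edgeR had none in the first set and 1, 1, 0 and 1 of 8 in the second, and DESeq2 and limma called none. Malat1 was the RNA with the smallest p at 9 months. It averaged 5293 ± 1083 CPM (SD, n = 4) there and 3831 ± 724 (SD, n = 5) at 2 months, a log2 difference of 0.49 (SE 0.14, adjusted p = 0.266). At 14 months it averaged 4201 ± 639 CPM (n = 5), with 0.13 (SE 0.14) against 2 months. Rn7sk in cumulus pools of 2 and 14 months averaged 393 ± 104 (n = 5) and 356 ± 75.8 CPM (n = 5).

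**Figure D4:**
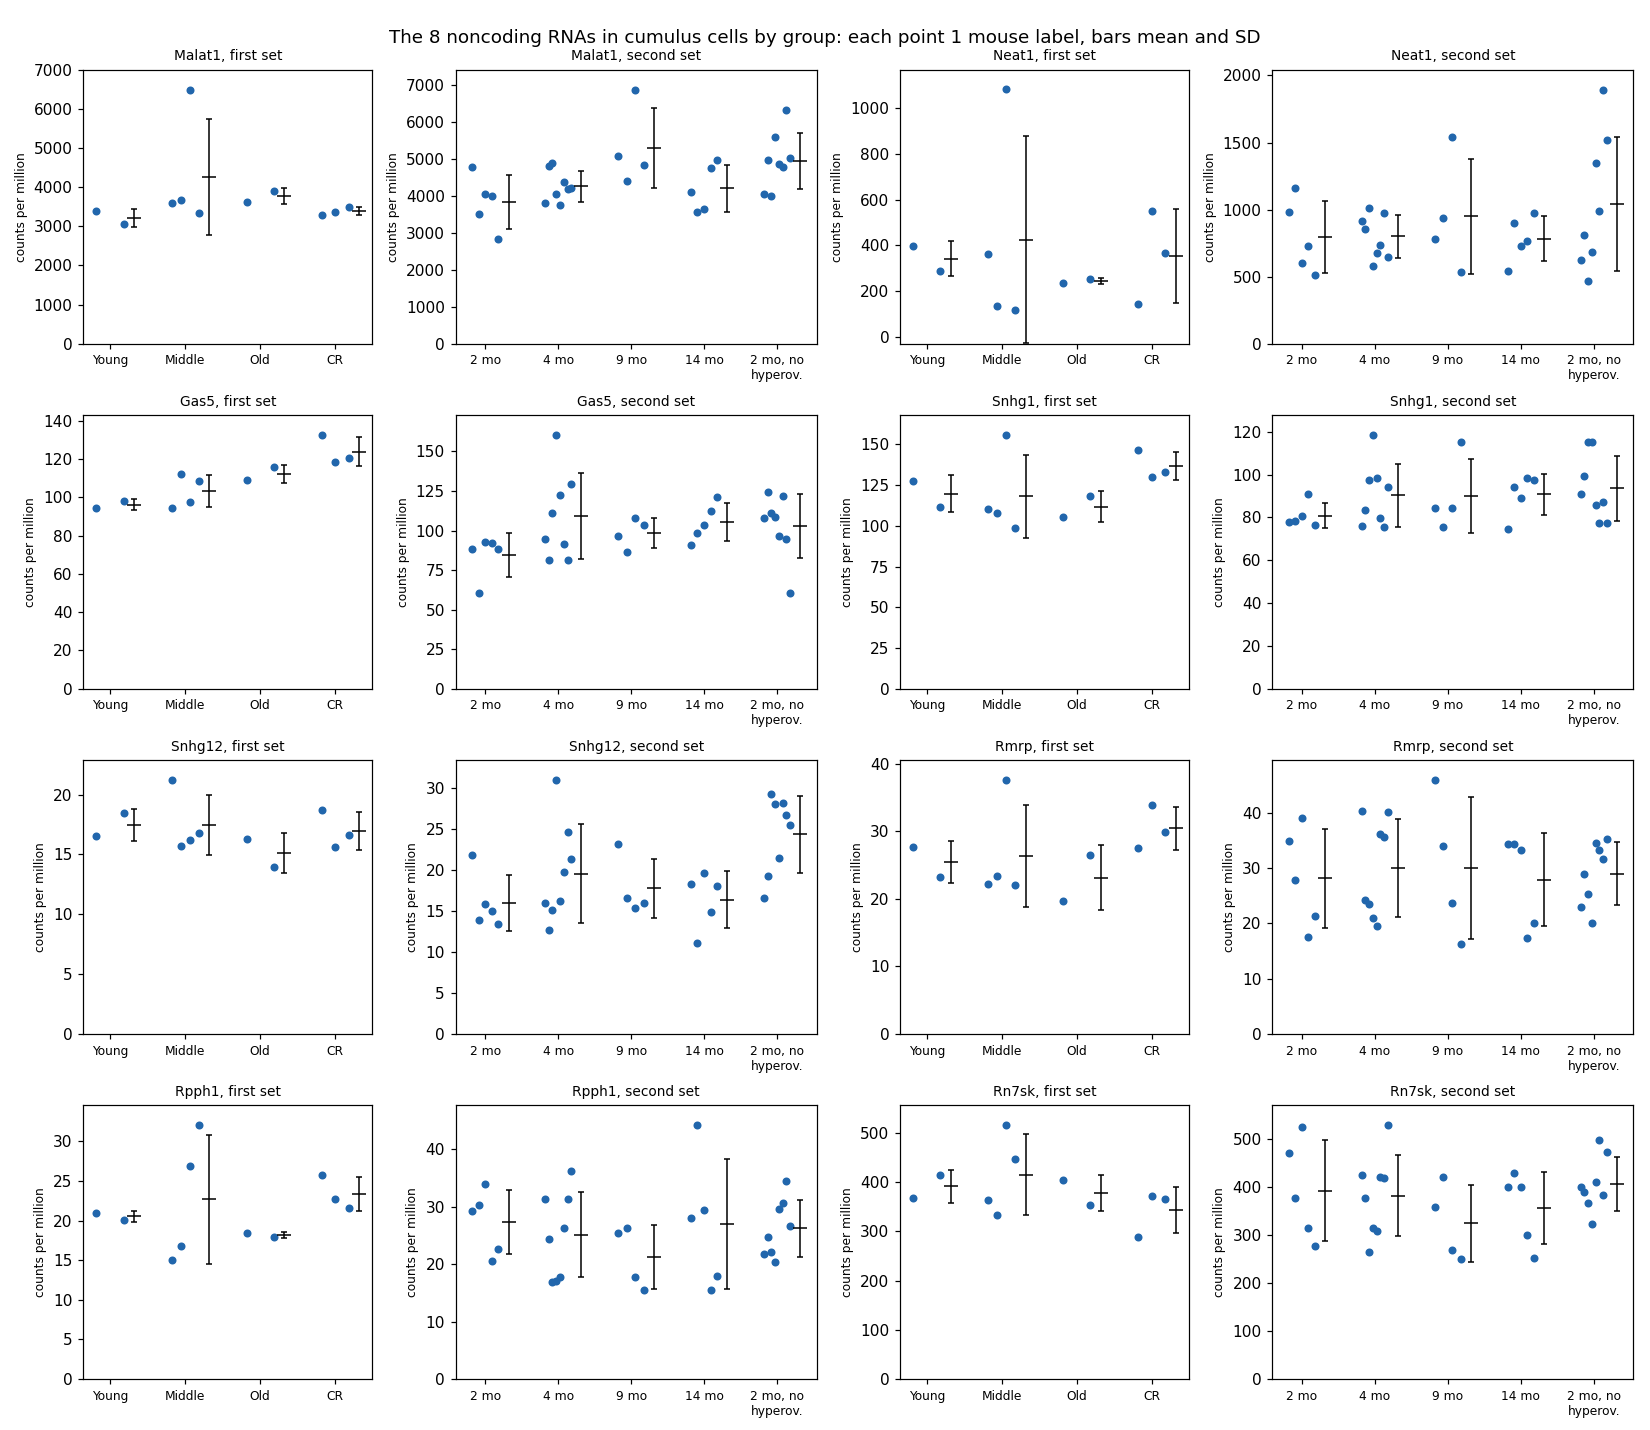
CPM of each RNA in cumulus pools by group, on a linear axis of its own in each panel, each point a mouse label and each bar the mean with the SD over labels. Groups overlap in most panels, and the mean of Snhg12 at 2 months lies lower with hyperovulation (15.96 CPM on average) than without (24.3).

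Calorie restriction gave no call among these RNAs. CR libraries were deeper than Middle ones, with median total counts of 3578882 against 2332126 in oocytes and 2019007 against 1091806 in cumulus pools. The ranges did not overlap, so diet and depth cannot be told apart in this comparison. CR against Middle oocytes called 8.33% of all genes and 0 of 8 members, with none at an unadjusted p under 0.05 and none by DESeq2 or limma. Neat1 stood at -1.79 (SE 0.86, adjusted p = 0.235), Gas5 at 0.56 (SE 0.28, adjusted p = 0.251) and Snhg1 at 0.54 (SE 0.26, adjusted p = 0.235), whereas Rn7sk stood at -0.38 (SE 0.24, adjusted p = 0.389). Without the 8 oocytes over 10% of the marker level Neat1 was at 0.04 (adjusted p = 0.981), Rn7sk at -0.68 (adjusted p = 0.0536), Gas5 at 0.56 (adjusted p = 0.0696) and Rmrp at -1.02 (adjusted p = 0.0753). In cumulus cells 0.0839% of all genes and 0 of 8 RNAs were called, with 1 at an unadjusted p under 0.05 and none by DESeq2 or limma. That RNA was Gas5, which averaged 124 ± 7.60 CPM (SD, n = 3) in CR and 103 ± 8.55 (SD, n = 4) in Middle pools, a difference of 0.28 (SE 0.11, adjusted p = 0.354). Its labels did not overlap, and how often this held over all genes was not counted.

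Hyperovulation had its nearest approach to a call in Snhg12 of cumulus cells. Snhg12 was 21.8, 13.8, 15.9, 14.95 and 13.3 CPM in the 5 labels with hyperovulation and ran from 16.5 to 29.2 CPM in the 8 labels without. The groups overlapped, since the label 2mo1 (21.8 CPM) lay above 2moNoH10 (16.5), 2moNoH11 (19.3) and 2moNoH6 (21.4), all without hyperovulation. The log2 difference was -0.61 (SE 0.19, adjusted p = 0.0802, edgeR), and Malat1 stood at -0.36 (SE 0.12, adjusted p = 0.129). DESeq2 called Snhg12 (adjusted p = 0.0308), as did edgeR with the name prefix as a covariate (adjusted p = 0.0433) or without 2mo1 (adjusted p = 0.0489). The comparison called 2.17% of all genes and 0 of 8 RNAs, with 2 at an unadjusted p under 0.05, 1 by DESeq2 and none by limma. In oocytes it called 0% of all genes and 0 of 8 RNAs, none of them at an unadjusted p under 0.05 or by DESeq2 or limma. Snhg12 in those oocytes was at or near 0, so a like change would not be detectable at this depth.

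Whether oocytes and cumulus cells responded differently was tested by an interaction term. For calorie restriction it called 0.641% of all genes and for hyperovulation 0.557%, and 0 of 8 RNAs in each, with none at an unadjusted p under 0.05 and none by DESeq2 or limma. The interaction of Gas5 with calorie restriction was 0.51 (SE 0.38, adjusted p = 0.793), and that of Malat1 with hyperovulation was 0.18 (SE 0.38, adjusted p = 1).

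**Figure D5:**
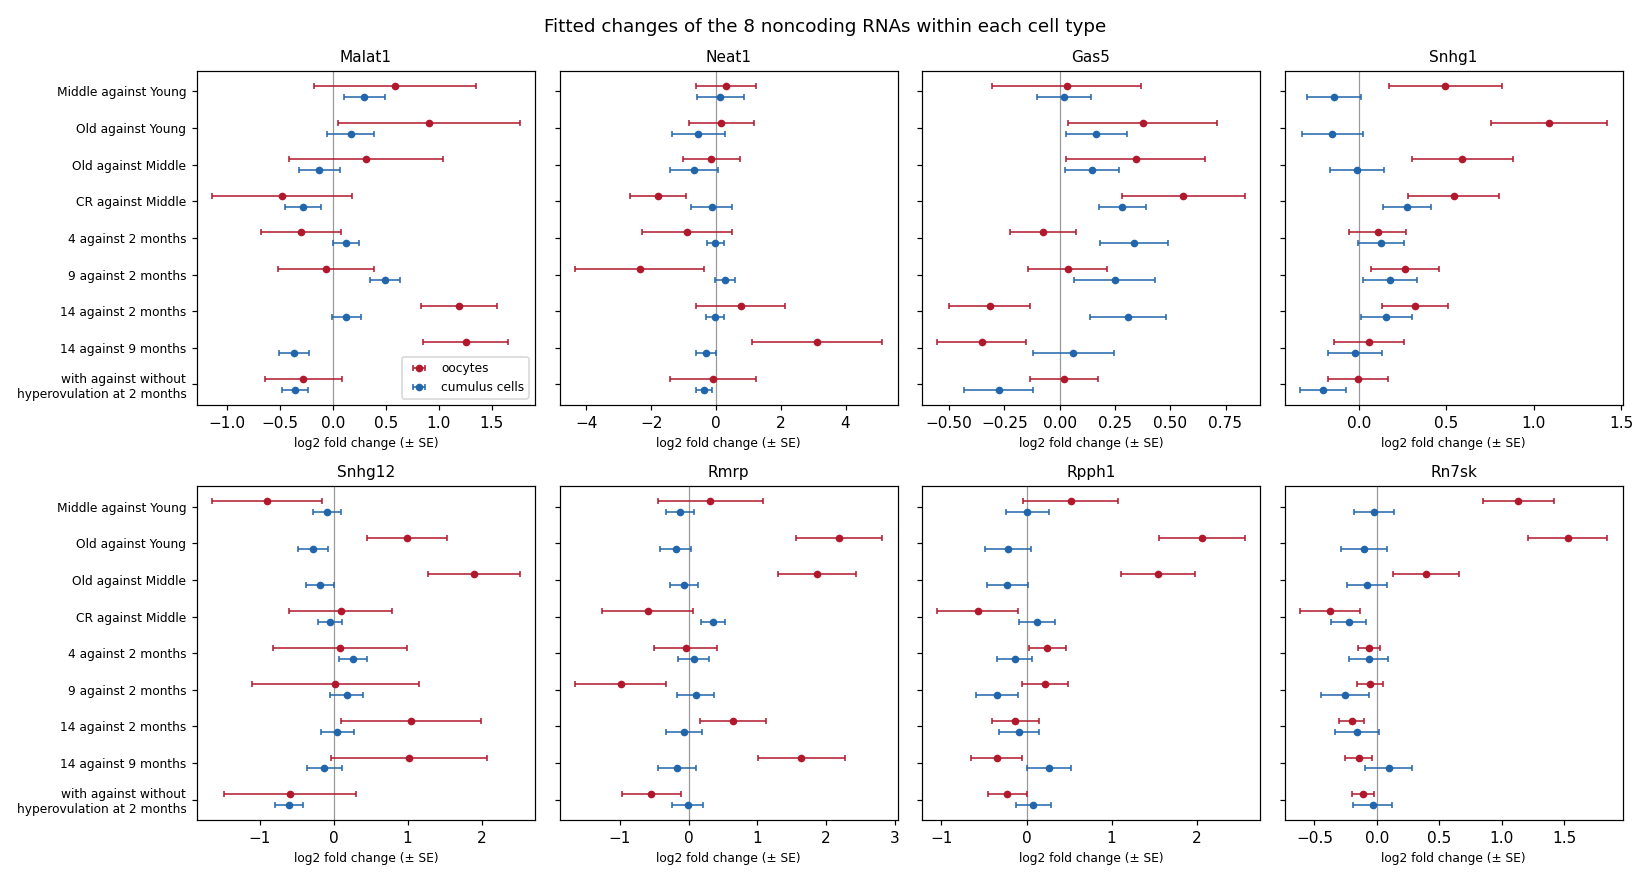
Log2 fold changes of each RNA with their SE in the fits within oocytes (red) and within cumulus cells (blue), 1 row per comparison and a scale of its own in each panel. None passed an adjusted p of 5% in these edgeR fits, while DESeq2 called Rn7sk in Old against Young oocytes and Snhg12 in cumulus cells with against without hyperovulation. Values include 1.53 for Rn7sk and 2.06 for Rpph1 in Old against Young oocytes, and 1.19 for Malat1 in oocytes of 14 against 2 months.

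The second set's complexes carry the prefix B1 (16 mouse labels) or B2 (14) in their names, spread over all groups, and what the prefix stands for is not given in the sources used here. A comparison by prefix was made after the values were seen. In cumulus cells it called 21.1% of all genes and 5 of 8 RNAs. The polymerase III RNAs were lower with B2. Rpph1 ran from 25.5 to 44.1 CPM with B1 and from 15.4 to 24.7 with B2, without overlap, at -0.63 (SE 0.08, adjusted p = 7.10e-07, edgeR). Rmrp ran from 27.8 to 45.9 against 16.3 to 28.8 CPM, at -0.72 (SE 0.08), and Rn7sk from 359 to 529 against 249 to 401 CPM, at -0.46 (SE 0.06). The host RNAs Snhg1, at 0.29 (SE 0.06), and Gas5, at 0.26 (SE 0.09), were higher with B2. Of 7 other small RNAs without poly(A), 3 were also lower with B2, among them Rn7s1 at -0.70 (SE 0.06), and none was higher. In oocytes the prefix called 5.29% of all genes and 0 of 8 RNAs, with 2, Rmrp and Rpph1, at an unadjusted p under 0.05. DESeq2 and limma were not run for it.

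Levels of the polymerase III RNAs moved together across the 30 second-set cumulus samples when both prefixes were pooled. Pearson's r was 0.83 between Rmrp and Rpph1 (Spearman's rho 0.79), 0.81 between Rmrp and Rn7sk (rho 0.80) and 0.84 between Rpph1 and Rn7sk (rho 0.83). Each had a permutation p of 1e-05, the smallest that 100000 resamples can give, and 0.000187 when adjusted over the 56 pairs of RNAs and cell types. All permutations in this paragraph exchanged samples between B1 and B2. The p values therefore include the shift between prefixes, and none tests a relation within a prefix. Leaving out the 2 samples farthest from the median gave 0.78, 0.78 and 0.85. Within B1 r was -0.10, 0.19 and 0.30, and within B2 it was 0.66, 0.56 and 0.73, so the pooled relation did not hold within B1. The relation of Gas5 and Snhg1 was positive within both prefixes, though no test was made within either. Its pooled r was 0.65 (rho 0.76, permutation p 9.00e-05 and 1e-05, adjusted p = 0.00126 for r), and 0.59 without 2 samples. Within B1 r was 0.49 and within B2 it was 0.63. Malat1 and Neat1, neighbours on chromosome 19, had r of 0.57 (rho 0.49, permutation p 0.00116 and 0.00674, adjusted p = 0.0106 for r), 0.43 without 2 samples, 0.56 within B1 and 0.74 within B2. Snhg1 was negatively related to the polymerase III RNAs in the pooled samples, with r of -0.61 for Rmrp (rho -0.58, permutation p 0.00035 and 0.00083, adjusted p = 0.00392 for r), -0.55 for Rpph1 (rho -0.55, permutation p 0.00156 and 0.00208, adjusted p = 0.0109) and -0.50 for Rn7sk (rho -0.51, permutation p 0.00578 and 0.00495, adjusted p = 0.0324). Without 2 samples r was -0.62, -0.52 and -0.52. Within B1 it was 0.14, 0.61 and 0.04, and within B2 -0.19, -0.37 and 0.02, so none of these relations held within both prefixes. The 56 pairs also cover the 30 second-set oocyte samples. There r was largest between Malat1 and Snhg12 (0.56) and between Malat1 and Rmrp (0.53). Snhg12 and Rmrp counts were few in those oocytes, and their relations are given as a description.

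The genes most like each RNA over the 30 cumulus samples were, for several of them, genes that share sequence with it. By Pearson's r of log2 CPM among 9686 genes, the nearest gene to Rn7sk was its copy Gm24447 (0.989), to Rmrp its overlap partner Ccdc107 (0.972) and to Malat1 Gm27694 (0.953), which lies inside it. The nearest to Rpph1 was AY036118 (0.915), to Snhg1 Taf15 (0.782), to Gas5 Taf1d (0.759), to Snhg12 Diexf (0.733) and to Neat1 Thoc6 (0.685). In oocytes only Rn7sk was abundant enough, with Gm24447 again the nearest of 8789 genes (0.981).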

How the data were processed

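RamDA-seq libraries of single oocytes and their cumulus pools had been trimmed and aligned by the authors with HISAT2 2.0.5 to GRCm38, and reads counted per gene with featureCounts 1.5.1, multi-mapped reads being shared. The deposited expected counts are therefore not always whole (36.8% of nonzero first-set and 35.1% of nonzero second-set counts) and were rounded after summing. The deposited RPKM values, scaled by the authors to gene length and read total, were used only in an alternative. Counts recomputed on that scale matched them within 1% for every value of these RNAs in the other libraries but for 14.5% of those in CR libraries, so the RPKM alternative of CR comparisons rests on values scaled in a way not given in the sources used here. Genes were compared per length by CPM over gene length, computed from the counts. ERCC spikes were not used. Symbols matched 43512 of 43633 IDs through the GENCODE annotation.

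Counts were summed per mouse label, the replicate, since the labels do not always tell single mice apart. Genes counted in 5 libraries or more were tested with edgeR 4.0.16 (R 4.3.3), TMM scaling and the quasi-likelihood F test in its newer form without a prior dispersion estimate (chosen for run time), with Benjamini-Hochberg adjustment at 5%. SE is the log2 fold change over the square root of F. Oocytes and cumulus cells of a label come from the same animal, so the label was a block. Their deviations from group means correlated at a median of 0.0720 over 11 labels and 0.102 over 30. Depth, given in the report, limits low counts, and counting error was not given separately.

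Alternatives were DESeq2 1.42.0, limma 3.58.1 on log2 CPM or RPKM with a pseudocount of 1, other filters, library size scaling, single libraries as units (as in the study), all libraries, the prefix as a covariate, and leaving out each label. Removal of oocytes over 10% cumulus markers and of an Old oocyte was added after seeing the data. The fits were tested on simulated data. The RNAs and the gene lists were chosen with earlier results of these data known. Of each list the 4 genes with the smallest adjusted p in a comparison could be named, and the genes most like a member were those with the highest r among genes of at least 10 CPM. Rn7sk copies were found with blastn 2.17.0 against GRCm38 transcripts. Start sequences are from RefSeq, which held the promoters of Malat1, Gas5, Snhg1 and Snhg12.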

Additional observations from a re-analysis of the deposited data

Results flagged for a closer look

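Single mouse labels stood far from the others of their group in 15 of the 95 groups of 4 to 10 labels. The limit used flags about 1 in 20 groups where values are independent and normally spread. Here the same labels recur across RNAs and several groups hold few counts, so the number flagged cannot be set against chance. All values are CPM of counts summed per label. In cumulus pools the label Middle3, left with 1 complex, was the highest Middle label for Malat1 (6486) and Rmrp (37.6). Gas5 was lowest in 2mo2 (60.3) and in 2moNoH9 (60.5), and Snhg12 was highest in 9mo21 (23.1). In oocytes Malat1 was highest in 2mo36 (8.85) and in 4mo28 (7.79) of their groups. Neat1 was highest in Middle4 (33.9), 14mo38 (0.855) and 2mo36 (0.330), the last of these from 3 counts and 14mo38 from 4. All other labels in the groups of 14mo38 and 2mo36 stood at 0, so any count there would have been flagged. Gas5 was highest in 2moNoH7 (6.46). Rmrp was highest in 4mo5 (1.12) and lowest in 9mo23 (0.123). Rpph1 was highest in 14mo39 (3.67) and in 9mo22 (2.95). The cause of these values was not tested.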

How the results depend on the processing

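The difference between oocytes and cumulus cells kept 8 of 8 RNAs called lower in both sets under every alternative run, including the fit with no replicate block (8 of 8 in each set). No result reversed. Within a cell type, 0 of 8 RNAs were called, and these alternatives changed the count. With single libraries as units, 4 were called for Old against Young oocytes, 3 for Old against Middle oocytes, 2 for CR against Middle cumulus cells, 1 for 14 against 2 months in oocytes, 1 for 9 against 2 months in cumulus cells and 2 for hyperovulation in cumulus cells. Libraries of a mouse share the animal, so they are not independent. DESeq2 called 1 for Old against Young oocytes (Rn7sk) and 1 for hyperovulation in cumulus cells (Snhg12). For the latter, edgeR's expression filter and the prefix as a covariate also gave 1. Leaving out each label in turn gave 0 to 4 for Old against Young oocytes (4 without Old3, which leaves 1 Old label assumed to vary like the other groups), 0 to 1 for 14 against 2 months in oocytes (1, Malat1, without 2mo36) and 0 to 1 for hyperovulation in cumulus cells (1, Snhg12, without 2mo1). The cause of these shifts was not tested. The shares of all genes called under each alternative are not given here, so these counts of RNAs cannot be set against them. Of the alternative values of single RNAs, 537 kept their side of the threshold and 23 came to pass it. No paired analysis was possible within a cell type because the groups share no mouse labels. Depth limits Neat1 and Snhg12 in second-set oocytes, where most libraries held no count.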
